A study of Mus musculus with 18 samples.

Results

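Open chromatin of mouse skeletal muscle cells was compared between proliferating wild-type myoblasts and myocytes after 24 h of myogenic differentiation. The myocytes were those whose peak names read WT-DM. ATAC-seq, which reads accessible DNA from the places where a transposase can insert adapters, had been run on 3 samples of each kind. Each group had 1 deposited peak list, called on the merged reads of its 3 samples. The members are all listed peaks on chromosomes 1 to 19, 86575 in myocytes and 96420 in myoblasts, together 182995 of the 400124 peaks deposited in 4 lists. A peak counted as shared when at least 1 bp of it was also covered in the other list.

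The genotype of the myocytes is recorded in opposite ways. The file name and the labels of its 3 samples give a MyoD knockout, whereas the peak names in column 4 of that list read WT-DM. The myoblast list is wild type by its labels and its peak names alike. The comparison is therefore one of wild-type differentiation only if the peak names are right. Whether they are was not tested. The peak names of the myocyte list also carry a prefix that the myoblast names lack, and no label says what it marks. The labels give neither strain, age, the composition of the culture medium nor the number of animals. They carry the abbreviations GM for myoblasts and DM for myocytes. The series also holds MyoD-null myoblasts, a myocyte list with peak names MKO-DM that was deposited as wild type, and 6 RNA-seq samples of the C2C12 line, which were not analysed here.

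When myoblasts leave the cell cycle and differentiate, MyoD and related basic helix-loop-helix factors bind regulatory elements of muscle genes, and some enhancers of the proliferating state close. MyoD is already present in proliferating myoblasts and can bind sites in closed chromatin. A peak of ATAC-seq marks DNA that is accessible, often at promoters and enhancers, and does not by itself name the gene that it serves. The peaks are described by position in the mouse build mm9, because no annotation or genome of that build was used here. For the same reason no marker genes of muscle or other cells were examined and no sequences are given.

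Both lists were of similar extent but differed in depth. Myocyte peaks covered 50.9 Mb and myoblast peaks 51.1 Mb. The genome-wide background recovered from the deposited values was 6.34 reads per base in myocytes and 8.18 in myoblasts. At that background a summit needed at least 17 reads to be listed in myocytes and 20 in myoblasts, equal to fold enrichments of 2.45 and 2.29. Fold enrichment is the value of the authors' peak caller, and it matched the reads at the summit over the local background with 1 added to both. A region without a listed peak was below detection and may still have been open. Since each group is 1 pooled list, no value has an error between replicates and no test between the groups was made. The 95% Wilson intervals below cover counting error only.

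Most regions were listed at both stages, and more peaks were listed in myoblasts alone than in myocytes alone. Of the 86575 myocyte peaks, 13360 had no overlap in myoblasts, which is 15.4% (15.2 to 15.7). These are called myocyte-only peaks. Of the 96420 myoblast peaks, 21628 had no overlap in myocytes, which is 22.4% (22.2 to 22.7). These are called myoblast-only peaks. There were thus 1.62 myoblast-only peaks for each myocyte-only peak. The difference was -8268 peaks, and the list lengths differed by -9845. These values can differ only because a peak can overlap several, so that 73215 myocyte and 74792 myoblast peaks were shared. With lists of equal length (86575 peaks each) the difference was 1244, the opposite sign, and came only from such multiple overlaps. The sign of the difference therefore does not measure whether more regions opened or closed. Peaks without overlap covered 4.33 Mb or 8.50% of the myocyte list and 6.59 Mb or 12.9% of the myoblast list.

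The peaks listed at 1 stage alone were weak and narrow. Myocyte-only peaks had a median fold enrichment of 3.27, with quartiles of 2.86 and 3.82, and shared peaks of the same list had a median of 4.77, with quartiles of 3.68 and 6.42. Myoblast-only peaks had a median of 3.05 (2.73 to 3.44), against 4.14 (3.28 to 5.37) for shared peaks. The median summit held 29 reads in myocyte-only and 51 in shared myocyte peaks. In myoblasts the values were 30 and 52 reads. Median widths were 294 bp against 536 bp in myocytes and 278 bp against 489 bp in myoblasts. Only 133 myocyte-only peaks (0.996%) and 173 myoblast-only peaks (0.800%) lay in the upper quartile of fold enrichment of their list.

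The share without overlap was larger in each weaker part of either list. In the strongest 10% of the myocyte list by −log10 p, 0 of 8657 peaks lacked overlap, which allows a share of up to 0.0347%. In the strongest 10% of the myoblast list it was 0 of 9642, which allows up to 0.0311%. The next 10% held 5 myocyte-only and 3 myoblast-only peaks. The shares were 2.23% of myocyte and 3.15% of myoblast peaks in the fourth 10%, 12.3% and 20.7% in the sixth, and 45.5% and 64.1% in the weakest. Cut by fold instead, 10 of 9958 myoblast peaks with a fold from 6 to 8 lacked overlap and 0 of 2853 with a fold of 8 or more, which allows up to 0.105%. In myocytes it was 124 of 14524 peaks and 12 of 7813 peaks. The same fold corresponds to fewer reads in the shallower myocyte list.

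**Figure D1:**
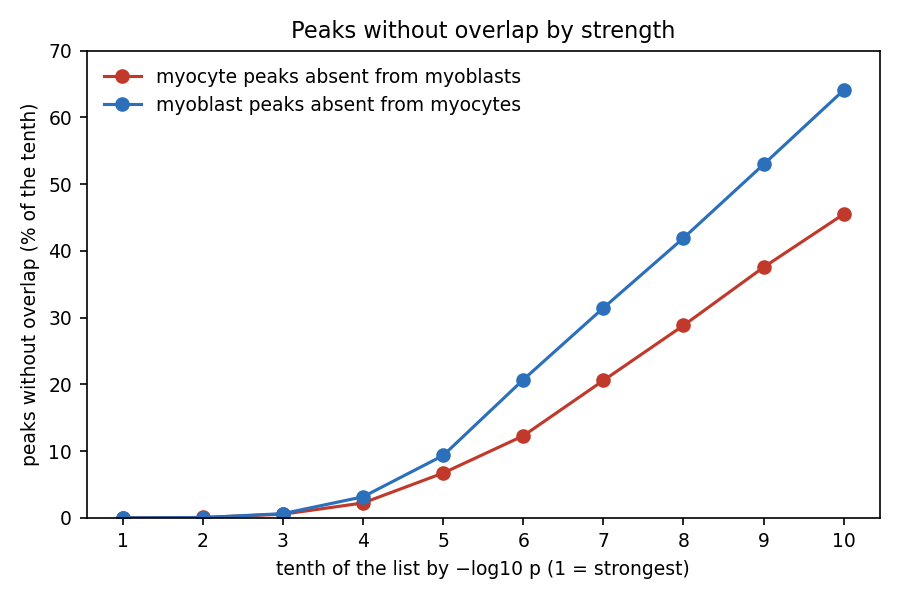
Share of peaks without overlap (y axis, percent) in each 10% of a list ordered from the strongest to the weakest −log10 p (x axis), for myocyte peaks absent from wild-type myoblasts (red) and myoblast peaks absent from myocytes (blue). Both lines start at 0 and end at 45.5% and 64.1%.

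In the lists as deposited, the surplus of myoblast-only peaks was spread over the genome. The share of myoblast-only peaks was higher than that of myocyte-only peaks on 19 of 19 chromosomes. Myocyte-only shares ranged narrowly, from 14.2% on chromosome 11 to 16.8% on chromosome 3, with a median of 15.5%. Myoblast-only shares ranged more widely, from 19.9% on chromosome 19 (18.5 to 21.4) to 25.9% on chromosome 14 (24.5 to 27.3), with a median of 22.2%. Chromosome 14 had 2.002 myoblast-only peaks for each myocyte-only peak and chromosome 10 had 1.38. The median fold of myoblast peaks was 3.78 on chromosome 14 and 3.73 on chromosome 19. The myoblast list was also the longer one on every chromosome. With lists of equal length, the shares over all these chromosomes were 19.1% myocyte-only and 17.7% myoblast-only, the opposite order. On each chromosome the surplus can depart from the difference in list length only where a peak overlaps several. Chromosome 14, for example, had 3769 myoblast and 3233 myocyte peaks, of which 975 and 487 lacked overlap. The surplus on every chromosome therefore follows from the longer list and is no separate result. Shares by chromosome are not given for equal lengths.

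**Figure D2:**
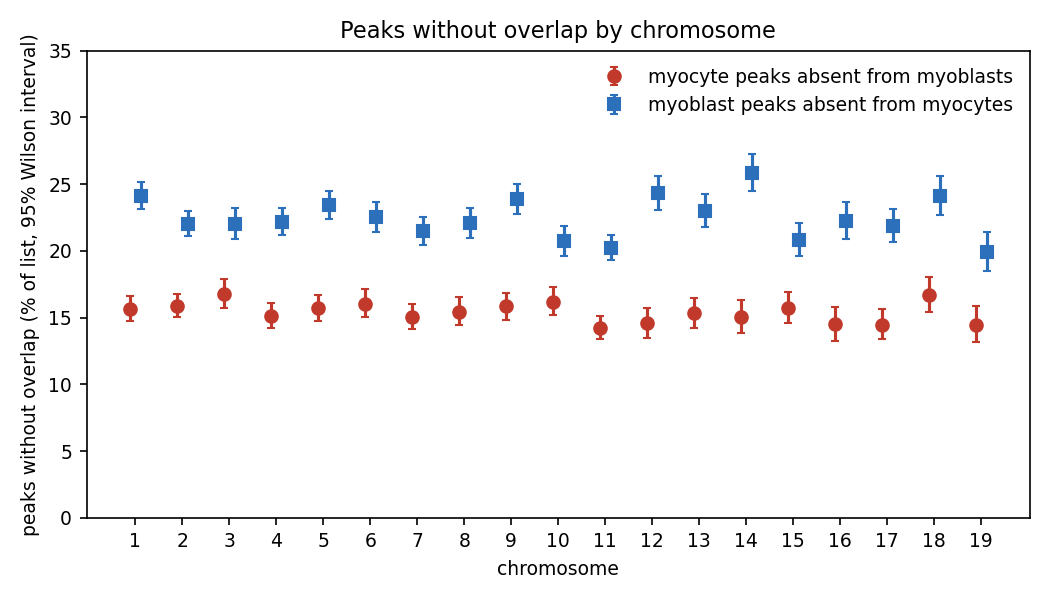
Share of peaks without overlap (y axis, percent of the list on that chromosome) for each chromosome (x axis), with 95% Wilson intervals for counting error. The lists are as deposited and of unequal length. Myoblast peaks absent from myocytes (blue) lie between 19.9% and 25.9%, above the myocyte peaks absent from myoblasts (red, 14.2% to 16.8%) on every chromosome from 1 to 19.

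The strongest myocyte-only sites were well above the limit of detection. The first was at chromosome 6, 51917429 to 51918127, with 81 reads at the summit and a local background of 6.34, which with 1 added to both gives its fold enrichment of 11.2. It lay 34581 bp from the nearest myoblast peak. It was listed in the other myocytes at a fold of 10.8 and not in MyoD-null myoblasts, so only the myocyte lists gave a peak there. The second, at chromosome 9, 104884307 to 104884918, had 75 reads and a fold of 10.4. It was listed in none of the other 3 lists and lay 70486 bp from the nearest wild-type myoblast peak. The third, at chromosome 1, 24619453 to 24619730, had 71 reads and a fold of 9.81 over only 278 bp. It was stronger in the other myocytes, with a fold of 17.3, and was listed in MyoD-null myoblasts at 4.40.

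The other 7 sites of the first 10 had folds of 8.18 to 8.86. Those at chromosome 13, 27138102 to 27138470 (fold 8.86), chromosome 19, 59955143 to 59955967 (8.63), and chromosome 15, 96927895 to 96928420 (8.22) were also listed in both other groups. Their folds in the other myocytes were 4.45, 6.36 and 4.46, and in MyoD-null myoblasts 3.46, 2.93 and 3.96. The remaining 4 were held by both myocyte lists and by no myoblast list. They lay at chromosome 14, 49298989 to 49299754 (fold 8.36, and 3.18 in the other myocytes), and chromosome 2, 22851477 to 22852187 (8.31 and 5.89). The last were at chromosome 5, 129892182 to 129892742 (8.31 and 7.37), and chromosome 2, 104350339 to 104350898 (8.18 and 6.84). In all, 9 of these 10 sites were listed in the other myocytes and 4 in MyoD-null myoblasts. Their folds in the MyoD-null myoblasts, where listed, were lower than in the other myocytes, a list not used to rank the sites. Folds were higher in the other myocytes in general, with a list median of 4.79 against 3.72. At chromosomes 13 and 15 the summits held 27 and 39 reads in the other myocytes and 32 and 37 in MyoD-null myoblasts. At chromosomes 1 and 19 they held 108 and 39 against 41 and 27.

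The strongest myoblast-only sites were weaker, with folds of 6.05 to 6.97 and 55 to 63 reads at the summit. All 10 were also listed in MyoD-null myoblasts, and 5 of them in the other myocytes. The first was at chromosome 8, 110383453 to 110384049, and was in neither myocyte list. Its fold was 6.97 in wild-type myoblasts and 6.81 in those without MyoD. The same pattern was found at chromosome 11, 99452272 to 99452617 (6.75 and 5.97), and chromosome 17, 54892827 to 54893271 (6.21 and 5.76). It was found as well at chromosome 16, 29512587 to 29512939 (6.10 and 6.39), and chromosome 19, 17629571 to 17630101 (6.05 and 4.74). The chromosome 17 site was isolated, with the nearest myocyte peak 142374 bp away.

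At the other 5 myoblast-only sites the myocyte list with WT-DM names was the only list of the 4 without a peak. At chromosome 7, 37170371 to 37170889, the other myocytes had a fold of 10.1, above the 6.10 of wild-type and the 7.02 of MyoD-null myoblasts. At chromosome 16, 95754402 to 95754846, the folds were 6.36, 6.06 and 5.79 in the same order, and at chromosome 4, 16126600 to 16127050, they were 6.05, 6.21 and 6.92. At chromosome 18, 40228070 to 40228517, they were 5.73, 6.32 and 4.72. The site at chromosome 14, 80329174 to 80329770, was weaker in the other myocytes, with 3.50 against 6.86 and 7.96.

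**Figure D3:**
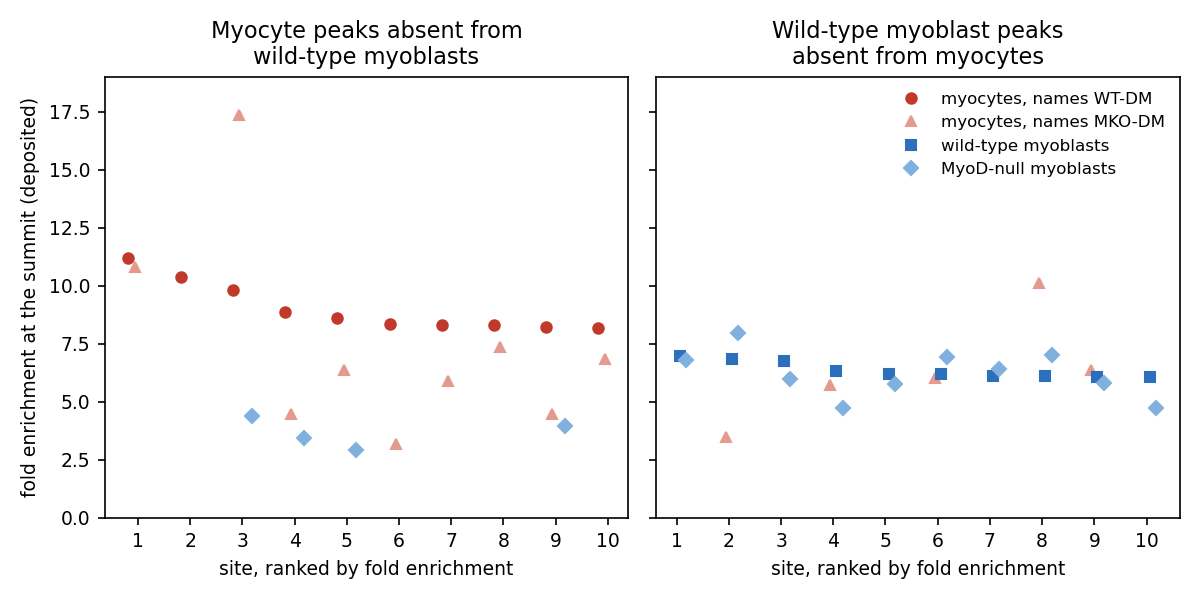
Deposited fold enrichment at the summit (y axis) in each of the 4 lists at the 10 strongest myocyte-only sites (left) and the 10 strongest myoblast-only sites (right), ranked by fold (x axis). A missing symbol means that no peak was listed, and MyoD-null myoblasts (light blue) have a symbol at 4 sites on the left and at all 10 on the right.

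The whole sets showed related patterns in the lists that did not enter the comparison. Of the 13360 myocyte-only peaks, 7449 or 55.8% (54.9 to 56.6) were listed in the other myocytes and 3545 or 26.5% (25.8 to 27.3) in MyoD-null myoblasts. Of the shared myocyte peaks, which were stronger, 92.5% and 94.4% were. By combination, 5066 myocyte-only peaks (37.9%) were in the other myocytes and not in MyoD-null myoblasts, and 4749 (35.5%) were in no other list. A further 2383 (17.8%) were in both, and 1162 (8.70%) in MyoD-null myoblasts alone. Of the 21628 myoblast-only peaks, 13656 or 63.1% (62.5 to 63.8) were listed in MyoD-null myoblasts and 9788 or 45.3% (44.6 to 45.9) in the other myocytes. Of the shared myoblast peaks, 94.2% and 92.5% were. Both lists held 7052 of the myoblast-only peaks (32.6%), MyoD-null myoblasts alone 6604 (30.5%), the other myocytes alone 2736 (12.7%) and neither 5236 (24.2%). The other myocyte list is the longer of the pair, with 109753 peaks, which raises the number that any set finds in it.

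Recurrence in the other lists depended on strength. Of the 608 myocyte-only peaks with a fold of 5 or more, 73.7% were in the other myocytes, against 51.4% of the 4524 with a fold under 3. Their share in MyoD-null myoblasts was 34.0% against 24.7%. All 171 myoblast-only peaks with a fold of 5 or more were listed in MyoD-null myoblasts, against 51.2% of the 9750 with a fold under 3. The share of those 171 in the other myocytes was 72.5%. A strong myoblast-only peak was thus usually missing from 1 myocyte list and present in the other 3 lists. Strong shared peaks recurred even more often. In the upper quartile of fold of the myoblast list, both lists outside the comparison held 23717 of 23932 shared peaks. They held 125 of 173 myoblast-only peaks. Being listed without MyoD was therefore not particular to strong myoblast-only peaks.

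Myoblast-only peaks often stood next to each other along the chromosome. After a myoblast-only peak, the next peak of the myoblast list was also myoblast-only in 29.9% of cases, and after a shared peak in 20.3%. For myocyte-only peaks the values were 16.3% and 15.3%. Unbroken runs of 3 or more held 5028 or 23.2% of the myoblast-only peaks and 976 or 7.31% of the myocyte-only peaks. With lists of equal length these shares were 17.8% and 10.998%, and the next peak was myoblast-only in 25.04% of cases after a myoblast-only peak and in 16.1% after a shared one. For myoblasts and myocytes that the peak names call MyoD-null, the corresponding values were 26.6% and 18.3%. The pattern in myoblast-only peaks was thus not particular to the lists compared here. There the myocyte-only peaks followed each other in 32.7% of cases and shared peaks in 28.6%. Runs of 3 or more held 25.8% of those myocyte-only peaks and 19.01% of the myoblast-only peaks, the opposite order. With the myocytes deposited as wild type against wild-type myoblasts the shares were 25.4% and 16.6%. The share without overlap was itself larger for myoblasts in the main comparison (22.4% against 15.4%). It was larger for myocytes in the other 2, at 29.8% against 19.96% and 29.9% against 18.1%. In each case the longer list had the larger share.

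Myoblast-only peaks also lay farther from the peaks of the other stage. The median distance to the nearest myocyte peak was 7240 bp, with quartiles of 2667.75 and 17977 bp. Myocyte-only peaks had a median distance of 3597 bp to the nearest myoblast peak, with quartiles of 1272.75 and 8046.75 bp. Within 1000 bp of a peak of the other list lay 20.1% of myocyte-only and 11.6% of myoblast-only peaks. Distances over 50 kb were found for 389 myocyte-only (2.91%) and 1806 myoblast-only peaks (8.35%). The myoblast list is denser, which shortens distances to it. Local background above 1.1 times the genome-wide value was found at 51.7% of myocyte-only and 36.1% of myoblast-only peaks, against 69.4% and 71.2% of shared peaks.

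The longest run of myoblast-only peaks held 15 peaks over 235.7 kb at chromosome 4, 153082013 to 153317729. It was picked after the runs had been counted, as were the other runs named here. Its peaks had folds of 2.44 to 4.14, all under the myoblast upper quartile of 4.94. No peak of the myocyte list with WT-DM names lay in it, and the other myocytes had 2 peaks there. MyoD-null myoblasts had 10 peaks in the same stretch, and 8 of the 15 wild-type peaks overlapped 1 of them. Flanking shared peaks were listed at both stages, with folds of 3.68 in myocytes and 3.81 in myoblasts on 1 side, and 8.71 and 7.91 on the other. Further runs of 12 peaks lay at chromosome 7, 149329502 to 149459966, and chromosome 2, 178469883 to 178877013. In MyoD-null myoblasts 11 and 8 of their peaks were listed, and in the other myocytes 3 of each.

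The longest run of myocyte-only peaks held 8 peaks over 36.5 kb at chromosome 8, 84349048 to 84385532. Their folds were 2.86 to 5.18, with 20 to 37 reads at the summits. Of the 8 peaks, 5 overlapped a peak of the other myocytes and 1 a peak of MyoD-null myoblasts, and wild-type myoblasts had none in the run. The other myocytes had a fold of up to 7.73 there. Shared peaks on either side had similar folds at both stages, for example 9.13 in myocytes and 9.43 in myoblasts at 84390772 to 84391571. The next longest was a run of 6 at chromosome 13, 5725677 to 5791480, of which 1 was in the other myocytes and none in MyoD-null myoblasts.

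**Figure D4:**
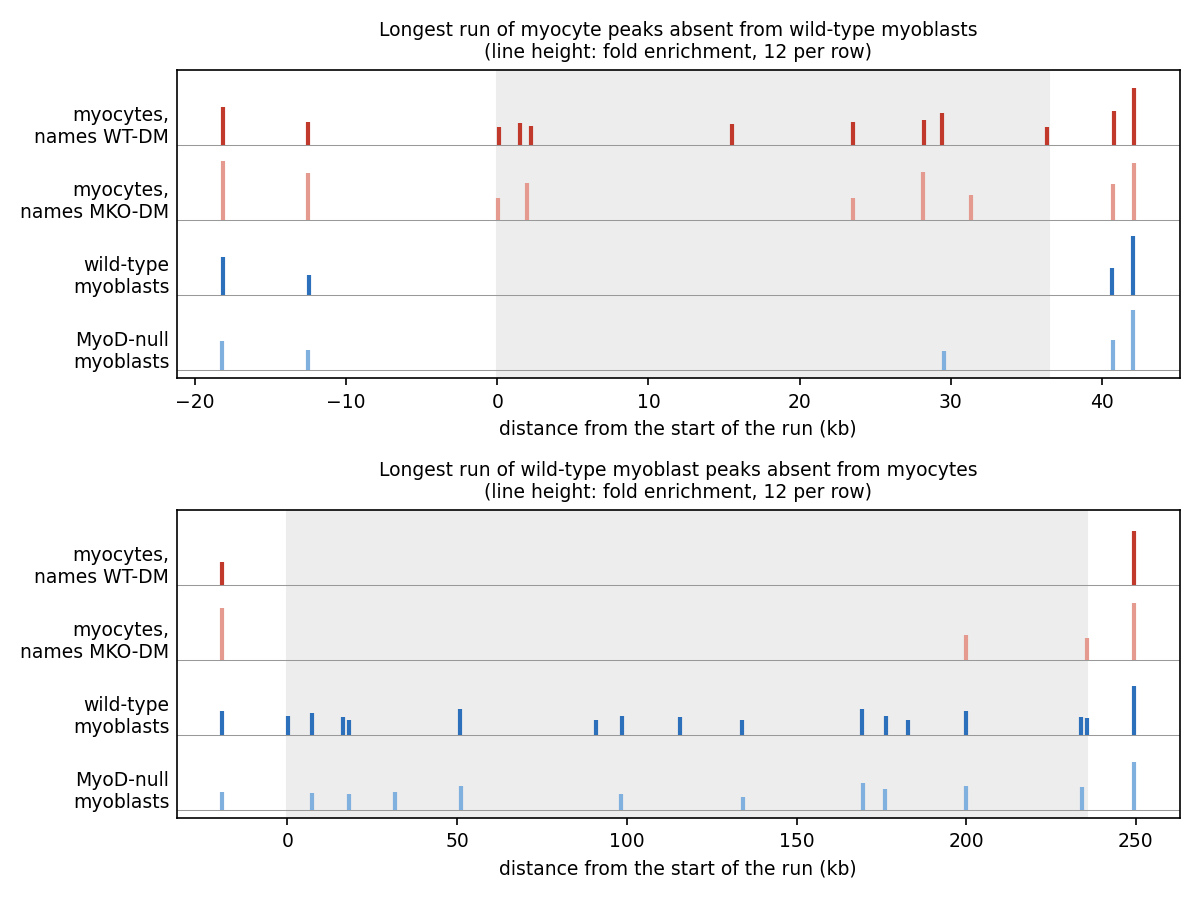
Peaks of the 4 lists around the longest run of myocyte-only peaks (top, 8 peaks) and of myoblast-only peaks (bottom, 15 peaks), by distance from the start of the run in kb (x axis), with line height giving the deposited fold enrichment. In the shaded runs, the list with which the peaks were compared has no line, while its flanking peaks are present at both stages.

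Windows of 100 kb were compared after scaling each list to 100000 peaks. The largest myocyte surplus was the window that holds the chromosome 8 run, 84300001 to 84400000, with 15 myocyte and 5 myoblast peaks. Of its myocyte peaks 10 were myocyte-only, and the other myocytes had 12 peaks there and MyoD-null myoblasts 8. The second window was chromosome 6, 31000001 to 31100000, with 23 against 16 peaks, and the third chromosome 10, 12500001 to 12600000, with 21 against 14. The fourth was at chromosome 3, 54900001 to 55000000, with 17 peaks in each myocyte list and 10 in each myoblast list. The fifth was at chromosome 8, 35800001 to 35900000, with 15 against 8.

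The largest myoblast surplus was at chromosome 8, 19900001 to 20000000, with 19 myoblast and 9 myocyte peaks, and 23 and 8 in the other myoblasts and myocytes. At chromosome 12, 114500001 to 114600000, there were 11 myoblast and 2 myocyte peaks, and MyoD-null myoblasts and the other myocytes had 12 and 4. At these 2 windows both myoblast lists had more peaks than both myocyte lists. Windows at chromosome 12, 118600001 to 118700000, and chromosome 11, 118600001 to 118700000, held 12 against 4 peaks each, and chromosome 1, 87600001 to 87700000, held 14 against 6. In all 5 windows none of the myocyte peaks was myocyte-only. By unscaled counts, of 18227 windows with a peak, 8558 (46.95%) held more myoblast peaks, 3772 (20.7%) more myocyte peaks and 5897 (32.4%) equal numbers. With lists of equal length, 33.7% held more myoblast and 30.0% more myocyte peaks.

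Where a region was listed at both stages, the peaks lay at nearly the same place. There were 70268 regions in which 1 myocyte peak overlapped exactly 1 myoblast peak. Their summits were a median of 44 bp apart, and 79.0% were within 100 bp. Median widths were 525 bp in myocytes and 488 bp in myoblasts. A single myocyte peak spanned several myoblast peaks in 2033 cases, with a median width of 1271 bp, and a single myoblast peak spanned several myocyte peaks in 484. Across the 70268 regions, Pearson's r of the log2 folds was 0.82 and Spearman's rho was 0.80. These are correlations across regions, which are not independent replicates, and regions share the local base composition and mappability.

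Folds at these regions were on the whole higher in myocytes, at a median of 4.77 against 4.15 in myoblasts. The summits themselves held a median of 51 and 52 reads, over local backgrounds of 9.0 and 11.2. The fold was at least 1.5 times higher in myocytes at 6633 regions (9.44% of those compared) and at least 1.5 times lower at 500 (0.712%), so that 93.0% of these regions were higher. After dividing each fold by the median of its list at these regions, 2155 regions (3.07%) were higher and 1991 (2.83%) lower, so that 52.0% were higher. That division makes the medians of both lists equal at these regions, so near-even counts were largely set in advance. The surplus of higher regions thus depended on the scaling.

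The 5 regions with the highest ratio of myocyte to myoblast fold were close to the detection limit in myoblasts and strong in myocytes. At chromosome 5, 21485569 to 21486223, the summit held 93 reads in myocytes and 29 in myoblasts, with folds of 10.5 and 3.27, and the other myocytes and MyoD-null myoblasts had 10.4 and 4.51. At chromosome 10, 26969341 to 26970194, the folds were 9.40 and 2.94, with 4.93 in the other myocytes and no peak in MyoD-null myoblasts. At chromosome 11, 5204456 to 5205080, they were 8.65 and 2.72, with 6.52 in the other myocytes and again none in MyoD-null myoblasts. At chromosome 9, 68103783 to 68104543 (8.59 and 2.83), and chromosome 17, 67499531 to 67500216 (9.68 and 3.27), the other myocytes had folds of 6.52 and 9.07 and MyoD-null myoblasts 4.40 at both. The ranking used the folds of the compared lists, so their contrast was set by the choice of regions. In the lists not used for the ranking, the other myocytes had the higher fold wherever MyoD-null myoblasts had a peak. Folds of the other myocytes were higher in general, with a list median of 4.79 against 3.72. At chromosomes 5, 9 and 17 the summits held 65, 40 and 56 reads in the other myocytes and 42, 41 and 41 in MyoD-null myoblasts.

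The 5 regions with the lowest ratio were less uniform over the lists. At chromosome 9, 27283251 to 27283450, the summit held 19 reads in myocytes and 58 in myoblasts, with folds of 2.73 and 6.43, yet the other myocytes had 11.4 and MyoD-null myoblasts 7.10. At chromosome 1, 16740295 to 16740623, the folds were 2.86 and 6.43, with 5.07 in MyoD-null myoblasts and no peak in the other myocytes. At chromosome 1, 146253845 to 146254044, they were 2.73 and 5.99, with 5.73 in the other myocytes and 5.24 in MyoD-null myoblasts. At chromosome 4, 16095733 to 16096417, they were 2.24 and 4.91, and the summits held 47 and 57 reads over local backgrounds of 20.5 and 10.8. At chromosome 13, 111196471 to 111196790, they were 3.29 and 7.19, with 3.34 in the other myocytes and 6.30 in MyoD-null myoblasts.

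**Figure D5:**
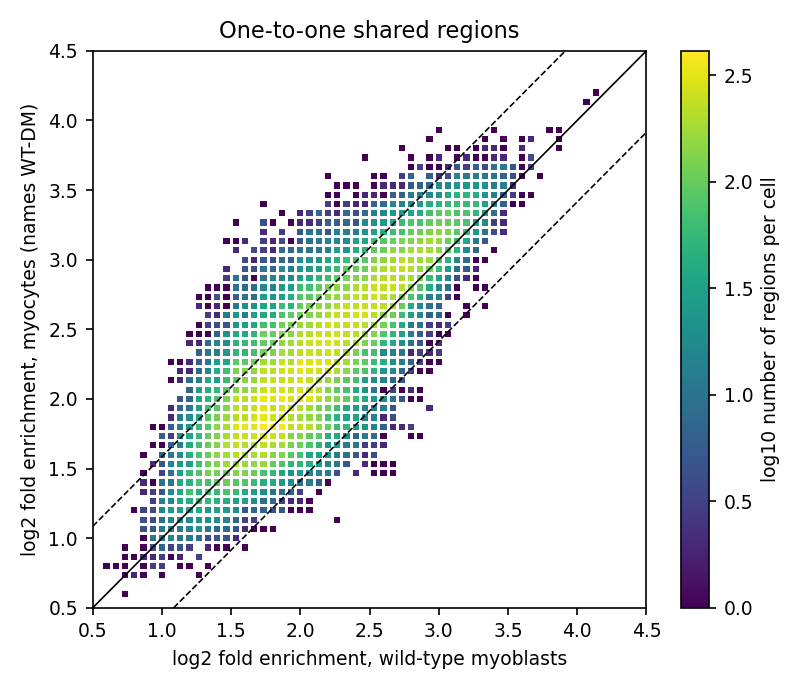
Log2 of the deposited fold enrichment in wild-type myoblasts (x axis) and in myocytes with WT-DM peak names (y axis) at 70268 regions with a single peak in each list, coloured by the log10 number of regions. The solid line marks equal folds and the dashed lines a ratio of 1.5, beyond which 6633 regions lie above and 500 below.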

How the data were processed

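The 4 ATAC-seq peak lists were each called on 3 merged samples, per the file headers (peak names). Per the submitters' processing notes the build was mm9 and the tools included MACS2 and deepTools, without versions. The aligner for the ATAC-seq reads: not given in the sources used here. An FDR tag in the file names and the lowest q values fit a q limit of 0.01. Repeats were not filtered out. The authors' deposited values per peak were the fold enrichment at the summit (a ratio to the local background, with 1 added to reads and background), −log10 p and −log10 q values (lowest −log10 q 2.02 in both lists compared), and a score, which was not used. Folds between lists were set side by side as descriptions.

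The genome-wide background came from the even spacing of the 12 most frequent folds. Reads at each summit were solved from the fold and p values, which matched the deposited −log10 p to within 0.01. Total reads per sample are unknown. The rule named, in each direction, the 10 strongest peaks without overlap, 5 shared regions and 5 windows. The members and rules were chosen with earlier results of these data known. Gene lists, markers and motifs planned for an mm9 annotation were not run.

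Alternatives were a −log10 q or fold of at least 5, equal lengths, 50% reciprocal overlap, summits within 250 bp, peaks extended by 500 bp, a common lowest fold, X and Y added, the other myocyte list, windows of 50 and 250 kb, and scaled folds. Equal lengths for clustering and for the MyoD-null lists were added after the data were seen. Tested on 20000 simulated peaks, 8 of 8 known quantities came back within 1 percent. The software comprised matplotlib 3.10.9, statsmodels 0.14.6, scipy 1.17.1, pandas 2.3.3, numpy 2.4.6 and Python 3.11.15.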

Additional observations from a re-analysis of the deposited data

Results flagged for a closer look

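With genotypes read from the peak names, the difference between myocyte-only and myoblast-only peaks had opposite signs in the wild type, with -8268, and in MyoD-null cells, with 12696. List lengths differed by -9845 and 9561. Each difference can depart from that in list length only where a peak overlaps several, so its sign followed the longer list. With lists of equal length, an alternative chosen after seeing the data for the MyoD-null cells, the differences were 1244 and 3182. They had the same sign and came only from such multiple overlaps. Neither the opposite nor the same signs are a result about genotype. No test of this contrast was made, since each group is a single list.

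At 5 of the 10 named windows the scaled difference between myocytes and myoblasts (peaks per 100000 of a list) had the opposite sign in the lists that the peak names call MyoD-null, and this was not tested. It was 9.97 against -0.915 at chromosome 6 from 31000001, and 9.03 against -2.52 at chromosome 8 from 35800001. It was -7.83 against 0.216 both at chromosome 12 from 118600001 and at chromosome 11 from 118600001, and -7.59 against 0.953 at chromosome 1 from 87600001. These windows were named for their large difference in the lists that the peak names call wild type. Unscaled, the other myocytes and MyoD-null myoblasts held 22 and 21 peaks at chromosome 6 and 6 and 8 at chromosome 8. They held 9 and 8 at chromosomes 12 and 11, and 12 and 10 at chromosome 1. At chromosome 6 the opposite sign thus came from the scaling.

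Chromosome X was outside the comparison. Of its 1646 myocyte peaks, 298 or 18.1% (95% Wilson interval 16.3 to 20.04) had no overlap in myoblasts. Of its 1656 myoblast peaks, 285 or 17.2% (15.5 to 19.1) had none in myocytes. The X lists were nearly equal in length and the intervals overlapped. On chromosomes 1 to 19 the shares were 15.4% and 22.4% as deposited, and 19.1% and 17.7% with lists of equal length, in the same order as on X. At such lengths the order follows from list length and from peaks that overlap several, so the same order is no separate result. The sex of the animals is not given in the labels used here, and no cause for the values on X was tested.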

How the results depend on the processing

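The number of myocyte-only peaks stayed within 1.5 times of 13360 under 8 alternatives, from 10671 (peaks extended by 500 bp) to 19036 (50% reciprocal overlap), and was 32819 with the myocyte list deposited as wild type. With a fold of at least 5 in both lists, the myocyte-only share was 38.0% (13021 of 34303) and the myoblast-only share 9.28% (2181 of 23495), the reverse order of 15.4% and 22.4%. Myoblast-only peaks otherwise numbered 15313 (equal length) to 28881 (reciprocal overlap). The difference of -8268 reversed to 10840 at a fold of at least 5, where the lists differed by 10808 in length. It was 1244 with equal lengths and 15390 with the list deposited as wild type, where the lengths differed by 13333. At a −log10 q of at least 5 the difference was -4426. These differences can depart from those in list length only where a peak overlaps several, so they largely repeat list length. Regions with a fold ratio of 1.5 numbered 2155 higher and 1991 lower after scaling, against 6633 and 500. All 20 named sites stayed without overlap under the alternatives that kept the myocyte list, which could not have come out otherwise. Those alternatives removed peaks, set a stricter overlap, added other chromosomes or extended peaks by only 500 bp. The nearest peak of the other list lay at least 4169 bp from a myocyte-only site and 7173 bp from a myoblast-only site. Of the named windows, 2 (myocyte surplus) and 1 (myoblast surplus) kept a place in the first 5 when windows were 50 or 250 kb wide, and 3 and 1 with equal lengths. Leaving out a replicate was not possible with pooled lists. No paired analysis was possible because each list pools its 3 replicates.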
